A study of Homo sapiens with 10 samples.

Results

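The genes described here are 48 genes of G2 and mitosis, taken by name from a fixed list. That list was chosen with earlier results of these data known. All 48 were among the 18034 genes listed for HCT116, a human colorectal carcinoma cell line. RNA was measured by mRNA sequencing in 5 groups of 2 libraries. In the inhibitor experiment, cells received EPZ-5676 (EPZ), an inhibitor of the histone H3 methyltransferase DOT1L, at 10 µM for 72 h, or its vehicle DMSO. In the other experiment every group carried an shRNA knockdown of CDK9, the P-TEFb kinase that lets paused RNA polymerase II elongate, and the groups are labelled K56A (the CDK9 K56A mutant put back), WT (wild-type CDK9 put back) and EV, which the labels do not expand. The labels give the parental genotype of the inhibitor cells as control, and they do not say whether the knockdown cells are clones or pools, what drives the returned CDK9, or whether the 2 libraries of a group come from separate cultures, so p-values measure only the spread between these libraries.

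A cell that has copied its DNA enters mitosis when cyclin B and CDK1 are switched on by CDC25 phosphatases, a step that PLK1 and Aurora A promote. Kinetochores then attach chromosomes to spindle microtubules under the watch of the spindle checkpoint, and the anaphase-promoting complex with CDC20 ends the checkpoint by marking cyclin B and securin for destruction. Most of these genes are transcribed in G2 through a pair of promoter elements, the CHR (cell cycle genes homology region) and the CCAAT box, which are bound by MuvB complexes with MYBL2 and FOXM1 and by NF-Y; in resting or arrested cells the DREAM complex binds at the CHR and keeps the genes off.

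By role the 48 members fall into 9 classes. The entry kinases, cyclins and phosphatases are CCNA2, CCNB1, CCNB2, CDK1, CDC25B, CDC25C, PLK1, AURKA and NEK2, and the transcription factors are FOXM1 and MYBL2. The spindle checkpoint class holds BUB1, BUB1B, BUB3, MAD2L1 and TTK, and the anaphase and ubiquitin class holds CDC20, UBE2C, PTTG1 and ESPL1. Centromere and kinetochore members are CENPA, CENPE, CENPF, NDC80, NUF2 and SPC25, and the chromosomal passenger complex is AURKB, BIRC5, INCENP and CDCA8. KIF11, KIF2C, KIF4A, TPX2, NUSAP1, HMMR and DLGAP5 move or organise the spindle, KIF20A, KIF23, PRC1, ANLN and ECT2 build the midzone and divide the cell, and TOP2A, MKI67, NCAPG, NCAPH, SMC2 and SMC4 shape the chromosomes.

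RefSeq promoters (GRCh38.p14, 250 bases before to 50 bases after the gene's start) were at hand for 41 of the 48 members, and 7 are shown because the results below turn on these genes or because the elements are easy to see in them. Where RefSeq lists several starts for a gene, as for 8 members, the one nearest the 5′ end of its most abundant transcript in EPZ and DMSO was taken; it lay within 250 bases of that end for 39 of 41 members, the others being AURKB and ECT2. Capitals mark the CHR (TTTGAA), its variant TTTAAA and the CCAAT box, on either strand. The windows are chr1:43358731-43359030 (+) for CDC20, chr5:69166900-69167199 (+) for CCNB1, chr16:23678639-23678938 (+) for PLK1, chr1:214602945-214603244 (+) for CENPF, chr5:160421605-160421904 (+) for PTTG1, chr20:3796060-3796359 (+) for CDC25B and chr20:43666864-43667163 (+) for MYBL2.
CDC20: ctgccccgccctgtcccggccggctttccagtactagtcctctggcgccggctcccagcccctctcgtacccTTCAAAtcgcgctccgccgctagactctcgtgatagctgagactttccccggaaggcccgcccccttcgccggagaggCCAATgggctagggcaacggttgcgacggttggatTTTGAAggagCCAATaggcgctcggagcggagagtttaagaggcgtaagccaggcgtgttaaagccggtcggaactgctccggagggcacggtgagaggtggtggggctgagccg
CCNB1: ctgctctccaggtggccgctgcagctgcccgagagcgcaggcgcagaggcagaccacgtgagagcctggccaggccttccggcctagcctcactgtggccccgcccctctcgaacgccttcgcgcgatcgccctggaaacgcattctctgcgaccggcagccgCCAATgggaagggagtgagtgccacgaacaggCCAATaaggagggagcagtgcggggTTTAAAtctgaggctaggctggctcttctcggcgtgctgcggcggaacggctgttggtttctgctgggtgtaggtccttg
PLK1: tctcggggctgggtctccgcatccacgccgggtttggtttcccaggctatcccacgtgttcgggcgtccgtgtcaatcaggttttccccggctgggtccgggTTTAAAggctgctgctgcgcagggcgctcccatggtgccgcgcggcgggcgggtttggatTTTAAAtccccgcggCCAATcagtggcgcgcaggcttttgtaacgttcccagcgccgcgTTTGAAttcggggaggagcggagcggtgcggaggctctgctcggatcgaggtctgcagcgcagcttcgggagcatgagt
CENPF: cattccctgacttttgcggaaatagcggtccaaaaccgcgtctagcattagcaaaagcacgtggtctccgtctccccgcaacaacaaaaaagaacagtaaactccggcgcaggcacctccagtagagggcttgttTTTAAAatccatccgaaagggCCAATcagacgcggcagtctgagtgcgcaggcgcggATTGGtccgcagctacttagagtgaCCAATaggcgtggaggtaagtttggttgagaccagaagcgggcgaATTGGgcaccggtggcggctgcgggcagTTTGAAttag
PTTG1: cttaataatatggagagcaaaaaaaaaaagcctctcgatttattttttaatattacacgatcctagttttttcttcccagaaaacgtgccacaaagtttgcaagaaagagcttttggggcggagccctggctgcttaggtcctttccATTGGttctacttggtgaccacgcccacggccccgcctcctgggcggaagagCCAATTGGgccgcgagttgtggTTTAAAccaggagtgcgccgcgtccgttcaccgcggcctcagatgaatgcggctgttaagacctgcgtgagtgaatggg
CDC25B: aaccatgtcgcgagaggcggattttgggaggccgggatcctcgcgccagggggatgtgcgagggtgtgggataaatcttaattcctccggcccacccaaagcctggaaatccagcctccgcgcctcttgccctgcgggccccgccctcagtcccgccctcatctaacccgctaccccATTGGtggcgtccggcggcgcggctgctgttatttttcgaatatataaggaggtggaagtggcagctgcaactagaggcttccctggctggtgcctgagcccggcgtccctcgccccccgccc
MYBL2: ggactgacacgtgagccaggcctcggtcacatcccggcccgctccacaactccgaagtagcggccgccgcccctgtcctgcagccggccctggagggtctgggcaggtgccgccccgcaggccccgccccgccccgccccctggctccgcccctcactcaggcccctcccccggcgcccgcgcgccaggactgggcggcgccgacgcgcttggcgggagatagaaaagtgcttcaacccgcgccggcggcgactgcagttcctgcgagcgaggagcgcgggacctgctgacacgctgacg

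The CHR letters TTTGAA were found in 28 of the 41 member promoters (68.3%), against 15.2% of all 35116 promoters of the same length. The variant TTTAAA was found in 12 members (29.3%), against 12.2% of all promoters. At least 1 of these forms was present in 34 members (82.9%), against 24.0% of all. The CCAAT box was present in 30 members (73.2%) and 34.6% of all promoters, and the CHR and CCAAT elements stood together in 25 members (61.0%) and 9.27% of all. In CCNB1 the variant starts at position -30 and the CCAAT boxes at -87 and -55, and PLK1 has the CHR at -29 with a CCAAT box at -73. In 25 members a CHR form starts between -50 and 20, the median first base over all matches being -30.5 for the CHR forms and -73 for the CCAAT box, and 18 members hold 2 or more CCAAT boxes. The promoters of MYBL2 and SMC2 hold none of these letters in this window, and CDC25B has a CCAAT box at -73 without TTTGAA or TTTAAA. The E2F letters TTCCCGC were found in 3 members (7.32%), against 6.55% of all promoters, and TTGGCGC in 2 (4.88%), against 3.04%. Every motif was searched on both strands. Only the exact letters given were searched, so other forms of the CHR or of E2F sites were not counted. TTTAAA reads the same on both, and a CCAAT box can overlap one on the other strand, as in PTTG1. These matches describe the letters only.

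**Figure D1:**
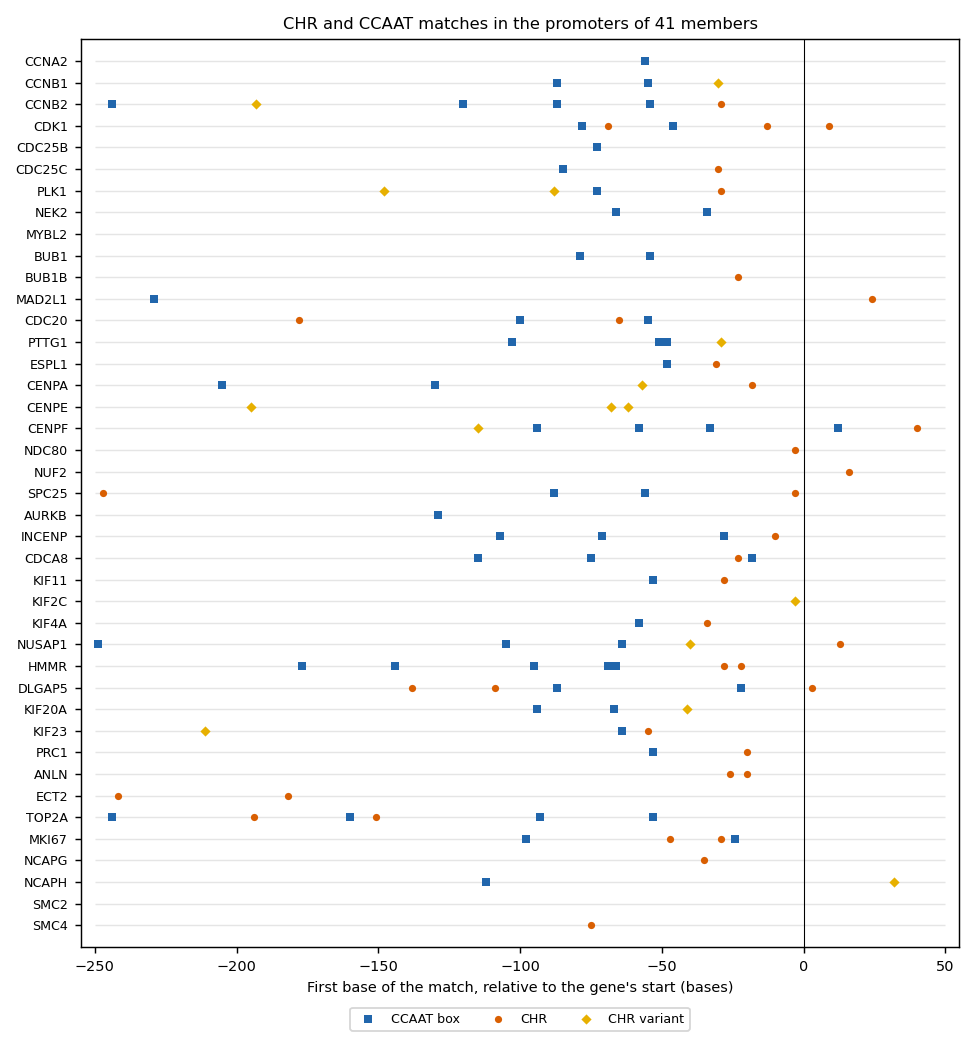
First base of each CHR (circles), CHR variant (diamonds) and CCAAT box (squares) match on either strand, in bases from the gene's start, for the 41 members with a RefSeq promoter, 1 line per gene. Matches cluster just before the start, with CHR forms at a median of -30.5 and CCAAT boxes at a median of -73, and MYBL2 and SMC2 have none.

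Levels are FPKM, read fragments corrected for transcript length and for the size of the library, summed here over the transcripts of each gene. All 48 genes were expressed in every library, the lowest value being 5.22 FPKM for CDC25C in EV replicate 1. The 48 genes together held 2463 and 2519 FPKM in EPZ, 2473 and 2539 FPKM in DMSO, 1792 and 1816 FPKM in K56A, 1798 and 1809 FPKM in WT, and 1801 and 1795 FPKM in EV. Within each experiment the sums of the groups overlapped. A change in the number of cells in G2 and a change in RNA per cell cannot be told apart in these bulk libraries.

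In the inhibitor experiment the most abundant member was PTTG1, securin, which holds separase inactive until anaphase, with 158 and 163 FPKM in EPZ and 175 and 154 FPKM in DMSO. CCNB1, the mitotic cyclin, had 151 and 161 FPKM in EPZ and 152 and 152 FPKM in DMSO. CDC20, the activator of the anaphase-promoting complex, had 147 and 127 FPKM in EPZ and 165 and 146 FPKM in DMSO. The groups overlapped for each of these 3 genes. BUB3, a checkpoint protein that docks on kinetochores, led the knockdown experiment in 5 of 6 libraries, with 102 and 106 FPKM in K56A, 96.5 and 106 FPKM in WT and 103 and 105 FPKM in EV. MKI67, which coats mitotic chromosomes and is the antigen of the Ki-67 stain, came close to it with 93.9 and 95.1 FPKM in K56A, 98.2 and 94.3 FPKM in WT and 91.8 and 92.2 FPKM in EV. In the inhibitor experiment BUB3 had 104 and 109 FPKM in EPZ and 119 and 115 FPKM in DMSO, and MKI67 had 54.2 and 53.4 FPKM in EPZ and 53.9 and 53.8 FPKM in DMSO. NUSAP1, which bundles spindle microtubules, had 98.9 and 100.4 FPKM in EPZ, 73.5 and 99.99 FPKM in DMSO, 81.9 and 81.0 FPKM in K56A, 79.9 and 80.6 FPKM in WT, and 84.4 and 74.6 FPKM in EV. PRC1, which crosslinks midzone microtubules, had 70.9 and 72.8 FPKM in EPZ, 75.4 and 77.5 FPKM in DMSO, 55.97 and 53.6 FPKM in K56A, 55.7 and 58.0 FPKM in WT, and 56.8 and 59.6 FPKM in EV. AURKB, the kinase of the chromosomal passenger complex, had 61.4 and 59.2 FPKM in EPZ and 70.3 and 57.6 FPKM in DMSO. The EPZ and DMSO libraries overlapped for MKI67, NUSAP1 and AURKB and did not for BUB3 and PRC1. CDC25C, a phosphatase that activates CDK1, was the least abundant member in 7 of the 10 libraries.

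**Figure D2:**
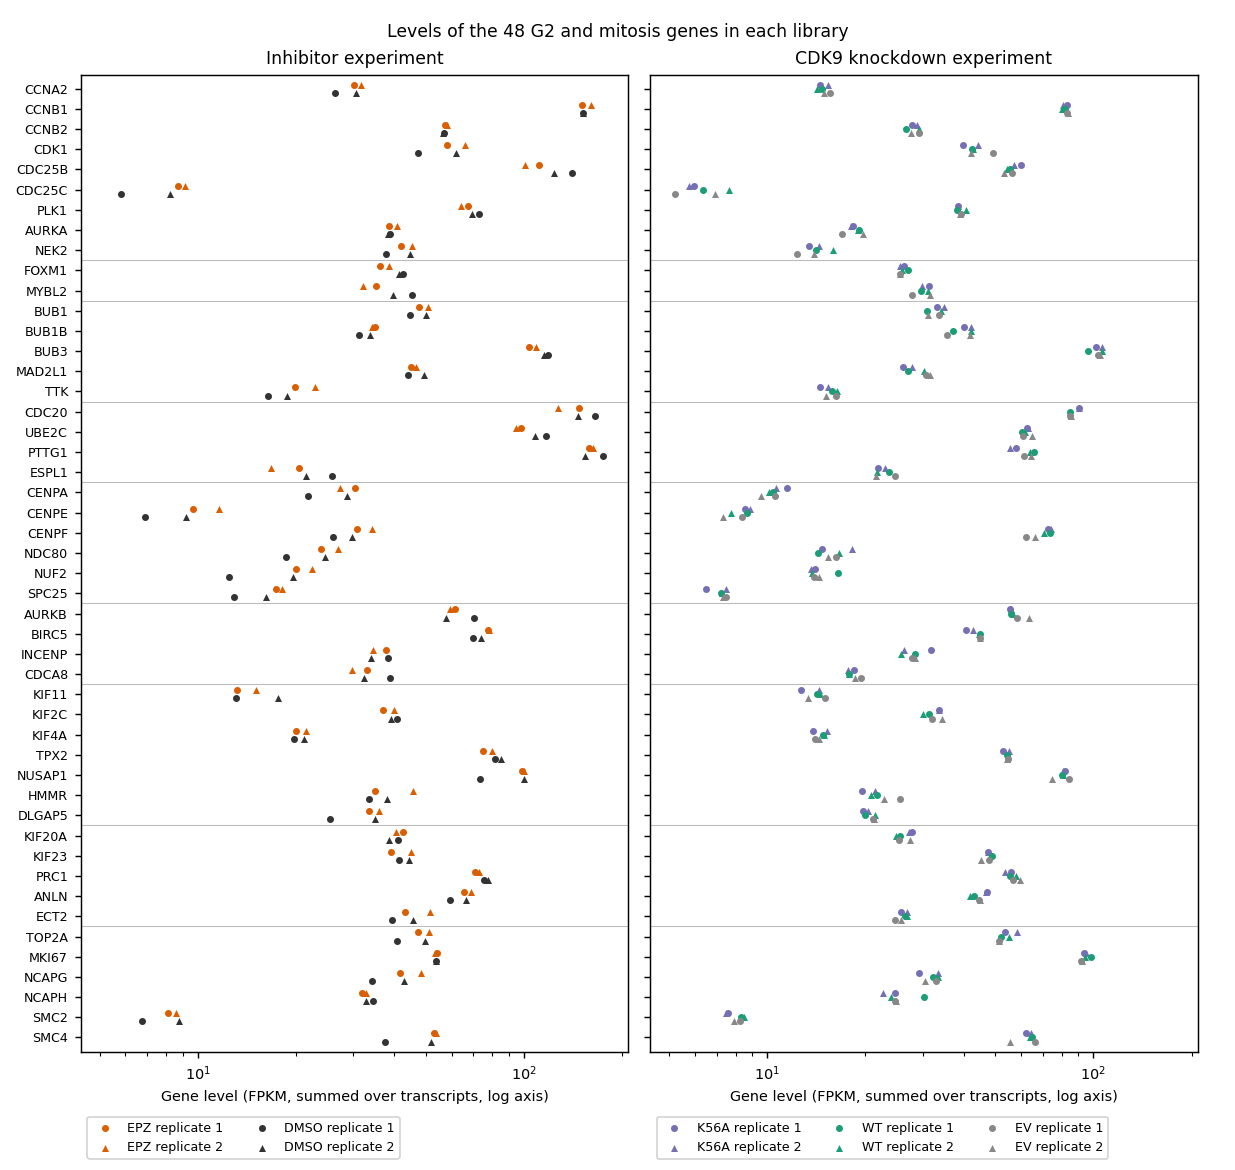
Gene level in FPKM (log axis) of the 48 members in each library, with circles for replicate 1 and triangles for replicate 2 and grey lines between the 9 roles. Left are EPZ and DMSO, right are K56A, WT and EV. Groups of 1 experiment lie close together for almost every gene, and DMSO replicate 1 lies lowest for 26 of 48 members.

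The first comparison asks which genes moved when DOT1L was inhibited. None of the 48 members passed the threshold in EPZ versus DMSO (limma on log2(FPKM + 0.5), Benjamini-Hochberg adjusted p of 0.05 over 13130 genes, of which 0.00762% passed). Before adjustment 2 of 48 members were under 0.05, both lower, against 5.83% of all genes. That count depended on the setting, with 14 of 48 members (16.8% of all genes) under the replicate block and 8 of 48 (9.02% of all genes) with length and GC trends removed. CDC25B, a phosphatase that starts CDK1 activation at the centrosome (chr20:3786772-3806121), had 111 and 101 FPKM in EPZ and 140 and 124 FPKM in DMSO. Both EPZ libraries lay below both DMSO libraries, with a log2 fold change of -0.31 ± 0.12 (SE, n = 2 each, limma adjusted p = 0.756). MYBL2, the MYB factor that joins MuvB at the CHR (chr20:43667019-43716495), had 35.2 and 32.2 FPKM in EPZ and 45.5 and 39.6 FPKM in DMSO. Its groups did not overlap either, with a log2 fold change of -0.33 ± 0.13 (SE, limma adjusted p = 0.756).

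ESPL1, separase, which cuts cohesin at anaphase, had 20.5 and 16.8 FPKM in EPZ and 25.8 and 21.5 FPKM in DMSO, a log2 fold change of -0.34 ± 0.15. CENPE, a kinetochore motor that carries chromosomes to the spindle equator, had 9.69 and 11.6 FPKM in EPZ and 6.87 and 9.23 FPKM in DMSO, a log2 fold change of 0.39 ± 0.18. For both genes the 2 groups did not overlap, and both had a limma adjusted p of 0.756. With protein-coding transcripts only, ESPL1 had a log2 fold change of -0.09. Over the members the log2 fold changes ran from -0.34 (ESPL1) to 0.42 (NUF2), with a median of 0.05 against 0.002 over all genes, and 28 of 48 were above 0. The libraries of the groups did not overlap for 19 of 48 members (39.6%), 10 higher and 9 lower, against 37.4% of all genes. The 95% confidence interval of the log2 fold change lay within 1 either side of 0 for 48 of 48 members and within 0.5 for 31 of them.

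By role, signs were shared in 3 classes in EPZ versus DMSO, which gives a description and not a test. All 6 centromere and kinetochore members were above 0, with a median of 0.26. NUF2 and SPC25, which with NDC80 form the outer kinetochore complex that grips microtubules, had log2 fold changes of 0.42 ± 0.20 and 0.28 ± 0.15. The 4 anaphase and ubiquitin members were all below 0, with a median of -0.20, and UBE2C, the ubiquitin-conjugating enzyme of the anaphase-promoting complex, had a log2 fold change of -0.22 ± 0.11. Both transcription factors were below 0, FOXM1 at 36.3 and 38.5 FPKM in EPZ and 42.7 and 41.5 FPKM in DMSO. None of these passed the test, with a limma adjusted p of 0.756 for NUF2, SPC25 and UBE2C.

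The members' fold changes moved with GC content, the share of G and C bases in a gene's transcripts. Members ranged from 35.3% (CENPE) to 59.9% GC (MYBL2), with a median of 45.7% against 49.8% over all genes with a sequence. Across the 48 members the log2 fold change of EPZ versus DMSO had a Spearman rho of -0.72 with GC content, and across 13040 genes rho was -0.51; genes share libraries and are not independent replicates, so no p is given. Of the 24 members with lower GC, 21 were above 0 (median 0.15), and of the 24 with higher GC, 7 were above 0 (median -0.07). By library, the lower-GC members had a median log2 deviation from their 4-library mean of 0.01 in EPZ replicate 1, 0.13 in EPZ replicate 2, -0.21 in DMSO replicate 1 and 0.06 in DMSO replicate 2. DMSO replicate 1, which had 54216 transcripts above 0 against 59403 to 59913 in the other libraries of its table, was thus the lowest and EPZ replicate 2 the highest for these genes. With the trends of length and GC removed over all genes, 0 of 48 members passed and the member median was -0.04. All 6 kinetochore members then remained above 0 (0.08 to 0.23) and all 4 anaphase members below 0 (-0.27 to -0.11), and FOXM1 and MYBL2 had -0.12 and -0.22. Without DMSO replicate 1 the kinetochore members ran from 0.0067 (CENPA) to 0.19 (CENPE), with NUF2 at 0.11. PTTG1 then lay above 0, at 0.06, and CDC20, UBE2C and ESPL1 below 0, at -0.10, -0.17 and -0.21. FOXM1 and MYBL2 had -0.15 and -0.23 in that setting.

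**Figure D3:**
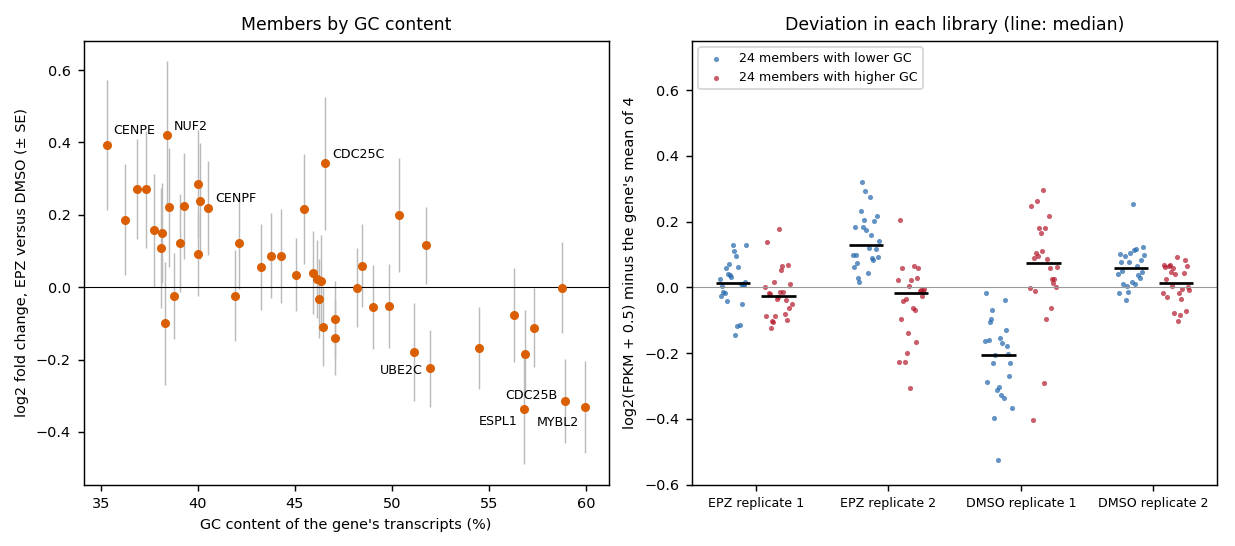
Left, log2 fold change of EPZ versus DMSO (± SE) of each member against the GC content of its transcripts, falling from CENPE and NUF2 to ESPL1, CDC25B and MYBL2. Right, deviation of each member from its mean over the 4 libraries, as log2(FPKM + 0.5), for the 24 members with lower and the 24 with higher GC; lines are medians, and the lower-GC members have medians of 0.13 in EPZ replicate 2 and -0.21 in DMSO replicate 1.

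Fold changes of the members depended on which DMSO library was left out. With 1 DMSO library the spread rested on the EPZ libraries alone, and the DMSO library was assumed to vary like them. Calls from such fits are not comparable with the fit of all 4 libraries, so effect sizes are given. Without DMSO replicate 2 the log2 fold changes ran from -0.46 (ESPL1) to 0.73 (NUF2). Their median was 0.09, and 31 of 48 were above 0. Without DMSO replicate 1 they ran from -0.30 (KIF11) to 0.19 (CENPE). Their median was then -0.0028, and 23 of 48 were above 0. The members differed between the DMSO libraries by a median of 0.18 on the log2 scale and by up to 0.63 (NUF2), against a median of 0.09 between the EPZ libraries.

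Putting CDK9 back was checked first at CDK9 itself, at 2611 and 2500 FPKM in K56A, 3060 and 2976 FPKM in WT and 16.4 and 19.4 FPKM in EV. DMSO cells of the inhibitor experiment, normalised separately, had 43.9 and 37.6 FPKM of CDK9. The level in K56A and WT thus lay far above that of cells without the knockdown. DOT1L had 733 and 703 FPKM in K56A, 578 and 568 FPKM in WT and 324 and 343 FPKM in EV, although the labels mention no change to it in these cells. It rose in WT versus EV by a log2 fold change of 0.78 ± 0.04 (SE, limma adjusted p = 0.000166). That call was lost without limma's trend by mean level (adjusted p = 0.173). In K56A versus EV DOT1L rose by 1.11 ± 0.04 (SE, limma adjusted p = 1.06e-05), a call kept under every alternative run. In K56A versus WT DOT1L had a log2 fold change of 0.32 ± 0.04 (SE, limma adjusted p = 0.0397), a call lost under 9 of 18 alternatives. Its part in the values of the members was not tested.

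The second comparison asks what wild-type CDK9 did in knockdown cells. Of the 44 members in the fit of the knockdown libraries, 0 passed in WT versus EV, where 0.536% of 11566 genes did. AURKA, NUF2, HMMR and KIF11 were outside that fit because over 5% of their FPKM lay in transcripts listed in only 1 of the 2 knockdown tables. Before adjustment 1 of 44 members was under 0.05, against 13.5% of all genes. That member was CENPF, a large protein of the kinetochore corona that rises in G2 (chr1:214603195-214664571). CENPF had 73.7 and 70.4 FPKM in WT and 62.3 and 66.1 FPKM in EV. Both WT libraries were higher than both EV libraries, with a log2 fold change of 0.17 ± 0.05 (SE, n = 2 each, limma adjusted p = 0.194).

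Next by p came AURKB, with 55.9 and 56.6 FPKM in WT and 58.2 and 63.4 FPKM in EV. NEK2, a kinase that separates centrosomes, had 14.1 and 15.9 FPKM in WT and 12.3 and 13.9 FPKM in EV. KIF2C, a kinesin that takes microtubules apart at centromeres, had 31.3 and 30.0 FPKM in WT and 32.1 and 34.4 FPKM in EV. Their log2 fold changes were -0.11 ± 0.05, 0.19 ± 0.09 and -0.12 ± 0.06, their groups did not overlap, and their limma adjusted p were 0.409, 0.413 and 0.426. Over the 44 members the median log2 fold change was 0.01 against 0.01 over all genes, 24 were above 0, and the range was -0.12 to 0.20. Groups did not overlap for 17 of 44 members (38.6%), 9 higher and 8 lower, against 43.5% of all genes. The 95% confidence interval lay within 0.5 either side of 0 for 43 of 44 members, a narrower bound than with the inhibitor, the median SE being 0.06 against 0.13. Some roles shared a sign here too. All 6 chromosome structure members and both transcription factors were above 0, and all 4 chromosomal passenger members were below 0. In K56A versus EV 3 of 6, 2 of 2 and 1 of 4 of these were above 0.

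The third comparison sets the K56A mutant against EV and shares the EV libraries with the comparison before it. Again 0 of 44 members passed, against 0.787% of all genes, and 4 of 44 were under 0.05 before adjustment, against 15.1%. CENPF had 72.5 and 74.1 FPKM in K56A and 62.3 and 66.1 FPKM in EV, with a log2 fold change of 0.19 ± 0.05 (SE, limma adjusted p = 0.137). The other members under 0.05 were lower. PTTG1 (chr5:160421855-160428739) had 58.0 and 55.6 FPKM in K56A and 61.1 and 64.3 FPKM in EV, with a log2 fold change of -0.14 ± 0.05 (limma adjusted p = 0.240). MAD2L1, the checkpoint protein that binds and blocks CDC20, had 26.0 and 27.8 FPKM in K56A and 30.6 and 31.5 FPKM in EV. Its log2 fold change was -0.20 ± 0.07 (limma adjusted p = 0.246), the lowest among the 44. The sign for MAD2L1 depended on the transcripts counted: its protein-coding transcript ENST00000296509 had 5.02 and 5.30 FPKM in K56A and 4.69 and 4.66 FPKM in EV, the rest of its FPKM lying in retained-intron and nonsense-mediated decay transcripts, and with protein-coding transcripts only its log2 fold change was 0.13 (limma adjusted p = 0.566). With the same restriction CENPF had a log2 fold change of 0.10. AURKB had 55.7 and 55.9 FPKM in K56A and 58.2 and 63.4 FPKM in EV, with a log2 fold change of -0.12 ± 0.05 (limma adjusted p = 0.322). None of these 4 members overlapped between the groups.

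Over the 44 members the median in K56A versus EV was 0.01 against 0.03 over all genes, and 24 were above 0. Groups did not overlap for 17 of 44 (38.6%), 8 higher and 9 lower, against 45.6% of all genes, and all 44 intervals lay within 0.5 either side of 0. The range was wider when only protein-coding transcripts were counted, with 45 members tested and 0 passing. It was then -0.17 to 0.62 in K56A versus EV and -0.21 to 0.66 in WT versus EV. The log2 fold changes had a Spearman rho with transcript length of 0.34 over the 44 members in K56A versus EV and 0.32 in WT versus EV, against 0.0048 and 0.0096 over 11468 genes, and MKI67 and CENPF have the longest transcripts of the 48. With all genes of both tables kept, HMMR, a spindle protein that binds TPX2, had a log2 fold change of -0.24 ± 0.08 in K56A versus EV (limma adjusted p = 0.239) and -0.18 ± 0.08 in WT versus EV (limma adjusted p = 0.374). AURKA, NUF2 and KIF11 had log2 fold changes of -0.0047, -0.03 and -0.06 in K56A versus EV, and 0.06, 0.08 and 0.02 in WT versus EV. In that fit a transcript listed only with WT counted as 0 in K56A, and the reverse, while EV kept its value. Such transcripts held up to 5.23% of FPKM for NUF2, 8.54% for HMMR and 21.8% for KIF11, and their part in these values was not tested.

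The fourth comparison sets the K56A mutant against wild-type CDK9, whose own log2 fold change was -0.24 ± 0.07 (limma adjusted p = 0.22). None of 44 members passed, against 0.0605% of all genes, and 4 were under 0.05 before adjustment, against 13.0%. PTTG1 had 58.0 and 55.6 FPKM in K56A and 66.0 and 64.0 FPKM in WT, with a log2 fold change of -0.19 ± 0.05 (SE, n = 2 each, limma adjusted p = 0.172). Both K56A libraries lay below both WT libraries. ANLN, the scaffold of the contractile ring, had 47.2 and 46.8 FPKM in K56A and 43.2 and 41.9 FPKM in WT, with a log2 fold change of 0.14 ± 0.05 (limma adjusted p = 0.267). KIF2C had 33.5 and 33.7 FPKM in K56A and 31.3 and 30.0 FPKM in WT, with a log2 fold change of 0.13 ± 0.06 (limma adjusted p = 0.367). CDC20 had 90.4 and 90.2 FPKM in K56A and 84.5 and 85.1 FPKM in WT, with a log2 fold change of 0.09 ± 0.04 (limma adjusted p = 0.369). These 3 genes were higher in both K56A libraries than in both WT libraries. With protein-coding transcripts only, ANLN and KIF2C had log2 fold changes of 0.09 and 0.08.

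The member median in K56A versus WT was -0.01 against 0.01 over all genes, 21 of 44 were above 0, and the range was -0.23 (CDC25C) to 0.14 (ANLN). Groups did not overlap for 15 of 44 members (34.1%), 8 higher and 7 lower, against 45.4% of all genes. The interval lay within 0.5 either side of 0 for 43 of 44 members.

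**Figure D4:**
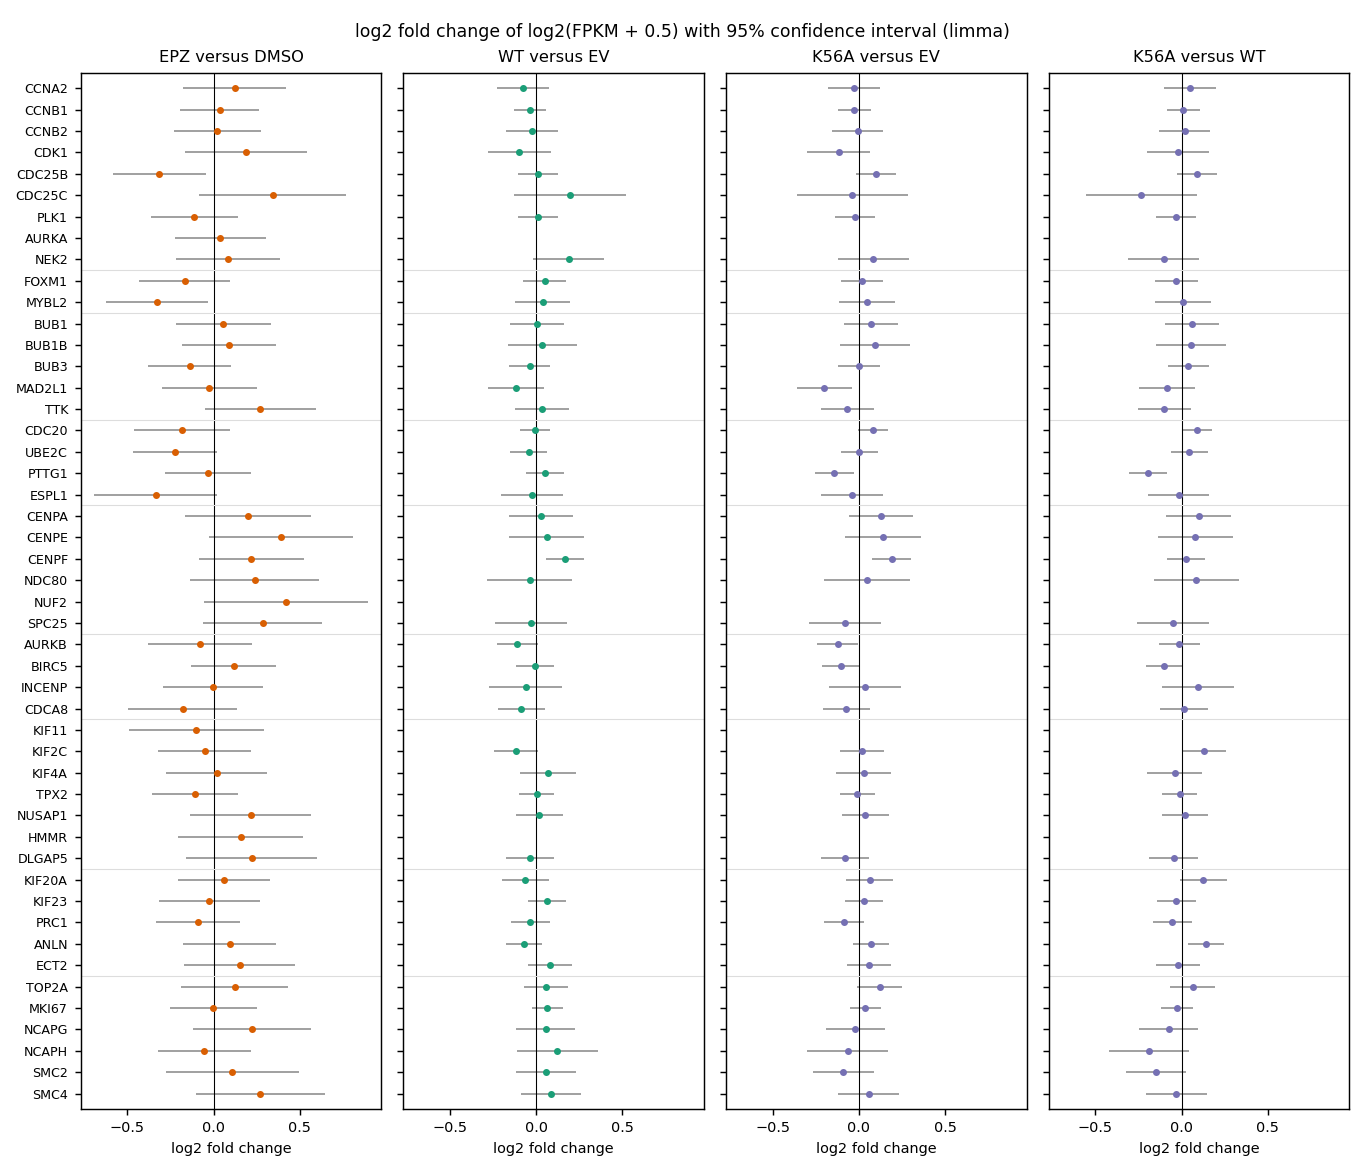
log2 fold change with its 95% confidence interval for each member in the 4 comparisons, on the log2(FPKM + 0.5) scale (limma). Points lie on both sides of 0 in every panel, between -0.34 and 0.42 in EPZ versus DMSO and between -0.23 and 0.20 in the others; 4 genes have no point in the knockdown panels because they were outside that fit.

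Below the gene level, the authors' deposited table called 2 of 246 member transcripts in EPZ versus DMSO, where it called 1.19% of all transcripts. The authors' deposited table called 9 of 265 in WT versus EV, 3 higher and 6 lower, against 3.33% of all, and 9 of 270 in K56A versus EV, 4 higher and 5 lower, against 3.80%. Both EPZ calls, an HMMR and a BUB1B transcript, were listed at 0 in DMSO. FOXM1, the forkhead factor that activates late cell cycle genes, had 3 called transcripts in K56A versus EV (chosen after its values were seen). In the authors' deposited table its transcript ENST00000359843 had 8.41 and 9.60 FPKM in K56A and 4.84 and 5.63 FPKM in EV, with an adjusted p of 0.000139. The authors' deposited table gave ENST00000627656 2.82 and 3.11 FPKM in K56A and 4.17 and 3.91 FPKM in EV, with an adjusted p of 0.0418, and called ENST00000342628 lower too. FOXM1 as a whole had 26.3 and 25.5 FPKM in K56A and 25.6 and 25.5 FPKM in EV. In WT the first of these transcripts was at 3.35 and 10.1 FPKM, so its 2 libraries differed from each other by more than K56A did from EV. The authors' deposited table also called the main CENPF transcript, ENST00000366955, higher in WT versus EV, at 47.3 and 47.3 FPKM in WT and 43.2 and 41.1 FPKM in EV (adjusted p = 0.00355).

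EV knockdown cells and DMSO cells come from separately normalised tables, so their levels are set side by side without a test. The ratio of mean FPKM, EV over DMSO, had a median of 0.706 over the 48 members and was below 1 for 41 of them (85.4%), against 0.910 and 56.3% over 10641 genes. NEK2 was lowest, at 12.3 and 13.9 FPKM in EV against 37.8 and 44.7 FPKM in DMSO, a ratio of 0.318. PTTG1, CENPA, the histone H3 variant of centromeres, and CDC25B followed with ratios of 0.381, 0.399 and 0.415. CENPF went the other way, at 62.3 and 66.1 FPKM in EV against 26.0 and 29.8 FPKM in DMSO, a ratio of 2.30, and MKI67 had a ratio of 1.71. Members with longer transcripts tended to the higher ratios, with a Spearman rho of 0.53 over 48 members against 0.10 over all genes. Mitochondrially encoded genes took 25.3% to 27.9% of all FPKM in the knockdown libraries and 17.3% to 19.3% in the inhibitor libraries. Without them, the 48 members held 0.445% and 0.435% of FPKM in EV and 0.513% and 0.538% in DMSO. Transcripts annotated as retained introns held 11.1% to 11.7% of member FPKM in the knockdown libraries and 5.50% to 6.01% in the inhibitor libraries. DOT1L was at 324 and 343 FPKM in EV and 12.6 and 12.5 FPKM in DMSO. Nuclear-retained RNAs summed to 604 and 599 FPKM in EV and 221 and 262 FPKM in DMSO, and the epithelial keratin KRT8 had 583 and 615 FPKM in EV and 1308 and 1174 FPKM in DMSO. DNA replication genes lay the other way from the members, at 1708 and 1755 FPKM in EV and 1446 and 1447 FPKM in DMSO. The part of these differences between the experiments in the member ratios was not tested.

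**Figure D5:**
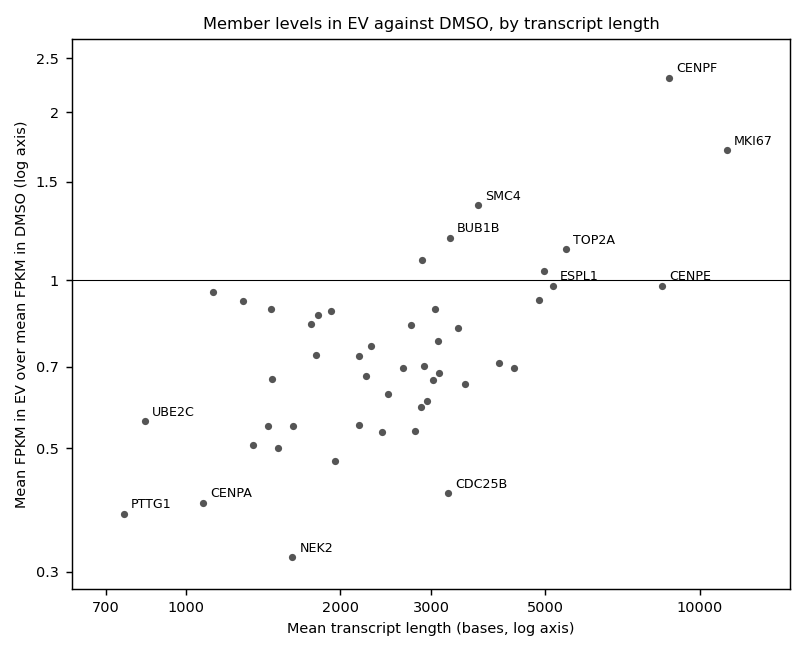
Ratio of mean FPKM in EV to mean FPKM in DMSO for each of the 48 members, against the mean length of the gene's transcripts, both axes logarithmic. Of the 48 points, 41 lie below 1, and CENPF (2.30) and MKI67 (1.71), with long transcripts, lie highest.

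Other genes of the same processes were taken from lists that hold no member. Of 123 further genes of the anaphase-promoting complex, entry kinases, kinetochore, cohesin, condensin, spindle and cytokinesis, 0 passed in EPZ versus DMSO, with a median log2 fold change of 0.01. Of the 105 that were in the knockdown fit, 0 passed in any of the 3 comparisons, and their medians were 0.02 in WT versus EV, 0.04 with K56A against EV and 0.03 with K56A against WT. None of 12 DREAM and MuvB genes passed with the inhibitor and none of 10 in the knockdown comparisons. Of the 4 p53-induced inhibitors of G2 that were tested, 2 were above 0 in K56A versus EV and 3 in WT versus EV. GADD45A, which restrains CDK1, rose in K56A versus EV by a log2 fold change of 0.48 ± 0.07 (limma adjusted p = 0.0342). In WT versus EV, GADD45A had a log2 fold change of 0.37 ± 0.07 (limma adjusted p = 0.0827). CDKN1A, the p53-induced CDK inhibitor p21, had log2 fold changes of 0.10 ± 0.05 in K56A versus EV and 0.06 ± 0.05 in WT versus EV, and neither passed. SFN, 14-3-3 sigma, which holds CDK1 in the cytoplasm, had log2 fold changes of -0.10 ± 0.05 in K56A versus EV and -0.17 ± 0.05 in WT versus EV (limma adjusted p of 0.380 and 0.185). BTG2 had log2 fold changes of -0.03 ± 0.06 in K56A versus EV and 0.07 ± 0.06 in WT versus EV. DNA replication genes, which peak before the members do, had a median of -0.15 in EPZ versus DMSO, against 0.002 over all genes. Of these 36 genes 30 were below 0, against 6505 of 13130 genes. Before adjustment 7 of 36 were under 0.05, against 5.83% of all genes, and 0 passed. This list was not followed with GC trends removed or with libraries left out.

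The cell type in the labels was checked on markers. Of 10 colon epithelial markers, 7 were at 1 FPKM or more in every library, and CDX1 and VIL1 were at 0 or not listed. Of 7 fibroblast markers only 1 was above that level, and none of 5 endothelial markers was. CLDN7, a claudin in the epithelial list, fell in WT versus EV by a log2 fold change of -0.41 ± 0.04 (limma adjusted p = 0.0125) and in K56A versus EV by -0.28 ± 0.04 (limma adjusted p = 0.0265). The epithelial list did not fall as a whole. Of its 7 markers tested, 2 were above 0 in WT versus EV, with a median of -0.04. In K56A versus EV 4 were above 0, with a median of 0.05 and a highest value of 0.45. All 7 were above 0 in K56A versus WT, where 0 passed.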

How the data were processed

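The 48 members, the other gene lists and the tests were chosen with earlier results of these data known. The authors deposited 3 tables of FPKM per transcript (EPZ with DMSO, WT with EV, K56A with EV), and beside them their own log2 fold change, p-value and adjusted p-value for each transcript. Per the submitters' processing notes DESeq2 1.32.0, RSEM 1.3.3, STAR 2.7.1a and Trim Galore 0.6.6 were used with build GRCh38. Neither the strand setting nor the annotation release is stated there, and antisense neighbours therefore cannot be separated. Per the file headers, edgeR gave these statistics for EPZ and DESeq2 for WT and K56A; they are quoted only as the authors' calls. The tables hold no counts, so depth is unknown and no interval for counting error is given.

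FPKM were summed per gene. The EV libraries stand in both knockdown tables with values that differ by a constant factor, so the K56A libraries were multiplied by the mean factor, 1.0007. Sums for the fit of the knockdown libraries used the 69086 transcripts listed in both tables. Genes with over 5% of their FPKM in transcripts of 1 table were left out of the fit, a limit that comes from the earlier analysis of these data. The knockdown levels of AURKA, NUF2, HMMR and KIF11 used all listed transcripts, as did those of CDK9, DOT1L and the other gene lists. Genes that reached 1 FPKM in 2 or more libraries (13130 and 11566 genes) entered limma 3.58.1 (R 4.3.3, trend by mean level) as log2(FPKM + 0.5), with two-sided p-values and Benjamini-Hochberg adjustment at 0.05; this scale understates changes of low genes. The inhibitor comparison used 4 libraries, and the other 3 comparisons came from 1 fit of 6 libraries. Per-library values were given for the 4 members with the smallest p per comparison and the most abundant member of each role. Other members shown for their values (NUF2, SPC25, UBE2C, FOXM1 and HMMR, and the extremes of EV over DMSO) were chosen after their values were seen. GC content and length are means over a gene's GENCODE 29 transcripts weighted by FPKM. Promoters came from RefSeq (GRCh38.p14) and were matched by symbol, the start being the one listed nearest the most abundant transcript's 5′ end, a choice made after seeing that first-listed starts of CDC25B and CDC25C lay away from it; the comparison set holds every listed start. Figures were drawn with matplotlib 3.10.9, and tables were handled with numpy 2.4.6 and pandas 2.3.3 in Python 3.11.15. Alternatives were other pseudocounts, filters and scalings, protein-coding transcripts only, no trend, removal of length and GC trends, a replicate block and leaving out each library. The result of the whole leukocyte marker list is not reported here.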

Additional observations from a re-analysis of the deposited data

How the results depend on the processing

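The count of 0 members called held under every alternative run in each of the 3 knockdown comparisons (18 each) and under 13 of 14 in EPZ versus DMSO, the exception being the 9 called without DMSO replicate 2 (leaving out each library in turn gave 0 to 9). The member median of log2 fold changes stayed within 0.1 of 0 throughout. In EPZ versus DMSO it was -0.0388 with length and GC trends removed and -0.0028 to 0.0869 when a library was left out. In K56A versus EV it was -0.0114 with median-ratio rescaling and -0.0042 to 0.0193 when a library was left out. In K56A versus WT it was 0.0084 with length and GC trends removed and -0.0183 to 0.0137 when a library was left out, the highest value coming without K56A replicate 1. In WT versus EV it was -0.0113 to 0.0156 when a library was left out, the lowest coming without EV replicate 2. The cause of these changes was not tested.

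Counts over all genes moved more. In EPZ versus DMSO, where 1 gene passed, 0 passed with a pseudocount of 0.1, with no filter, with FPKM of at least 5, without the trend and with length and GC trends removed, 3 passed with protein-coding transcripts only, 2 with the replicate block, and 34 to 1560 when a library was left out. In WT versus EV, where 62 passed, the counts were 40 with no filter, 149 with FPKM of at least 5, 125 without mitochondrially encoded genes, 1 without the trend, 37 with protein-coding transcripts only, 100 with length and GC trends removed, 11 with only the 2 groups compared and 2 to 11 when a library was left out. In K56A versus EV, where 91 passed, they were 55, 186, 4 (without the trend), 41, 153 and 25 for the same settings (mitochondrially encoded genes excepted), 53 with the replicate block and 6 to 38 when a library was left out. In K56A versus WT, where 7 passed, they were 1 with no filter, 24 with FPKM of at least 5, 16 without mitochondrially encoded genes, 0 without the trend, 1 with protein-coding transcripts only, 3 with the replicate block, 21 with only the 2 groups compared, 30 with all genes of both tables kept and 1 to 19 when a library was left out.

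With the replicate block, 0 members passed in each comparison. The labels do not say that equal replicate numbers mark a shared culture, and with 2 numbers per group pairing could not be established: the correlation across genes of the differences between replicates was 0.24 for EPZ and DMSO, 0.03 for WT and EV, -0.01 for K56A and EV and -0.03 for K56A and WT. Of the 4 members with the smallest p per comparison, the log2 fold change took the opposite sign under 1 alternative in K56A versus EV (MAD2L1, 0.13 with protein-coding transcripts only) and under none in the other comparisons. Members under 0.05 before adjustment in EPZ versus DMSO were 2 of 48 in the fit reported, against 5.83% of all genes. They were 14 with the replicate block (16.8% of all genes), 8 with length and GC trends removed (9.02%) and 0 without the trend (5.55%). These counts are not given for fits without a library, where 1 group held 1 library. With the first start listed for each gene, chosen after seeing the data, 34 member promoters held a CHR form, the number also found with the starts used. Depth is unknown, and no limit of detection was computed.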
